A study of Mus musculus with 9 samples.

Results

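The 10 genes described here are direct transcriptional targets of p53, taken as a fixed list of symbols from the pathway's arrest, apoptosis and feedback arms and matched to the rows of the count table. They are Cdkn1a, Mdm2, Ccng1, Bax, Bbc3, Pmaip1, Trp53inp1, Sesn1, Sesn2 and Phlda3, 10 of 56691 listed genes. All 10 passed the filter on low counts that left 17251 genes for testing, although Cdkn1a and Bbc3 passed it with as few as 6 counts in a library. The RNA came from whole mouse testes at postnatal day 7, an age at which the cords hold spermatogonia and immature Sertoli cells. The libraries were enriched for polyadenylated RNA and formed 3 groups of 3: Gm1142-/- Gm4779-/- double knockouts (DKO), libraries labelled Gm1142-/- (Gm1142KO), and wild type (WT). Strain, litter and the design of the deleted alleles were not given in the labels, nor whether the replicates of a group were separate animals, so the p-values measure the spread between these libraries, which may be technical.

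p53, encoded by Trp53 in the mouse, is a transcription factor that is kept scarce by the ubiquitin ligase MDM2 and its partner MDM4 and that accumulates after DNA damage and other stress. It binds pairs of a 10-base half-site near its targets and induces genes that stop the cell cycle, start cell death or adjust metabolism, among them Mdm2 itself, which closes a negative feedback loop. In the testis the pathway is known for its part in the removal of damaged germ cells.

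Total gene counts were 4370124 to 8359594 in DKO, with DKO 2 the deepest, 4597447 to 5243756 in Gm1142KO and 4514237 to 5091624 in WT. Both targeted genes had 0 counts in all 3 DKO libraries. A floor of 3 counts over the whole group, or 0.162 counts scaled to library size (CPM), puts DKO below WT by a factor of at least 60.5 for Gm1142 (symbol 8030474K03Rik) and 59.5 for Gm4779. Gm1142 had 65, 46 and 50 counts in the Gm1142KO-labelled libraries, against 56, 50 and 41 in WT (11.7 against 9.80 CPM, log2 fold change 0.25, edgeR quasi-likelihood, QL, adjusted p = 0.624). Gene counts can miss a short deletion or a frameshift, so the identity of this group rests on its labels, and so does every direction reported for it. The Gm1142KO-labelled libraries also stood apart from the other 6 across the transcriptome: 18.5% of all tested genes differed from WT, against 0.0927% between DKO and WT. Mitochondrial transcripts took 32.5% to 38.9% of their counts, against 27.1% to 32.9% in DKO and 29.4% to 32.7% in WT.

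Promoter sequence is shown for the 3 targets that differed between the Gm1142KO-labelled libraries and WT. Each carries a p53 half-site close to an annotated start, as do Bax and Sesn1, which did not pass in that comparison. The windows run from 250 bases before to 50 bases after the start in RefSeq's GRCm38.p6 annotation, 5′ to 3′ on the gene's strand. The counts were made on another build, mm39, so the windows show the sequence only. They are chr17:29090729-29091028 on the plus strand for Cdkn1a, chr10:117710709-117711008 on the minus strand for Mdm2 and chr11:40755237-40755536 on the minus strand for Ccng1. Capitals mark exact matches to the p53 half-site consensus and half-sites that form a pair with at most 1 mismatch in all.
Cdkn1a: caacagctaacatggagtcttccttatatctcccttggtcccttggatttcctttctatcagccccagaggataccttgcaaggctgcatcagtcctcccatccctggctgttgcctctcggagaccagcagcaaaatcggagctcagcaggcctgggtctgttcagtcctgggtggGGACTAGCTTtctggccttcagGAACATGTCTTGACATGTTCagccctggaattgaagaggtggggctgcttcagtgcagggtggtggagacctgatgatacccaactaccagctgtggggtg
Mdm2: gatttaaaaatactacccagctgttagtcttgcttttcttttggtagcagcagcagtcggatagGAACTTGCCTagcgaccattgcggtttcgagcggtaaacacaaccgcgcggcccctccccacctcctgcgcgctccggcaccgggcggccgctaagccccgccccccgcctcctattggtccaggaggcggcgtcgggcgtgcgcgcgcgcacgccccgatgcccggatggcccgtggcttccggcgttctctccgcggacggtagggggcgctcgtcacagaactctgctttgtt
Ccng1: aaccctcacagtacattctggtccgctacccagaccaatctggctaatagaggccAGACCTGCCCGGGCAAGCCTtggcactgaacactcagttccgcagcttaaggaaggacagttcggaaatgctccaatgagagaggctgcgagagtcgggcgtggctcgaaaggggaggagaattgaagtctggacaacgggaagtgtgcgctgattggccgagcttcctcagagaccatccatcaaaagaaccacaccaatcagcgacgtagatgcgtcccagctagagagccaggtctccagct

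The Cdkn1a window, which belongs to the upstream of 2 annotated starts, held 2 exact half-sites at 73 and 51 bases before the start, followed at 41 bases by TGACATGTTC with 1 mismatch. The window of the downstream start held none. The Mdm2 window held 1 exact half-site, GAACTTGCCT, at 186 bases before the start. Its closest pair with a spacer of at most 13 bases had 4 mismatches. In Ccng1 the half-site AGACCTGCCC with 1 mismatch was followed directly by the exact half-site GGGCAAGCCT at 185 bases before the start. Bax had 1 exact half-site, AGGCAAGCTT, at 201 bases and Sesn1 had AAGCTTGTTT at 173 bases, whereas the windows of Bbc3, Sesn2 and Phlda3 held no exact match. Trp53inp1 and Pmaip1 are named only.

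The half-site consensus reads the same on both strands, so 1 search covered both. It was found in 5 of the 8 target genes with a window, against 9.55% of 27025 genes in the annotation. Exact pairs with a spacer of at most 13 bases were found in 1 of 8 (Cdkn1a), against 0.074% of those genes. Pairs with at most 1 mismatch in all were found in 2 of 8 (Cdkn1a and Ccng1), against 0.718%. These are matches of letters, not measured binding.

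Levels of the 10 genes spanned a wide range. In CPM on TMM-scaled library sizes, divided by exonic length, the order of the WT means from the top was Bax (23.7 CPM per kilobase), Sesn2 (22.3), Mdm2 (14.4), Sesn1 (12.3) and Ccng1 (10.8). It continued with Trp53inp1 (6.99), Phlda3 (4.18), Pmaip1 (2.46), Cdkn1a (1.69) and Bbc3 (0.790). The WT libraries of neighbours in this order overlapped for Bax and Sesn2, for Sesn1 and Ccng1, and for Pmaip1 and Cdkn1a, and did not overlap for the other neighbours. Thus the arrest gene Cdkn1a and the BH3-only genes Bbc3 and Pmaip1 were the scarcest in WT, while the apoptosis effector gene Bax and the sestrin genes were among the most abundant. Cdkn1a had the lowest mean of the 10 in DKO (0.961 CPM per kilobase) and in the Gm1142KO-labelled libraries (0.562). In DKO its libraries (0.637 to 1.29) overlapped those of Bbc3 (0.744 to 1.6). Bax counts are uncertain because its exons overlap those of Gm45808 on the same strand, and Cdkn1a exons overlap the unclassified transcript AC167363.2 on the opposite strand.

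The 10 genes together took nearly the same share of the RNA in every group. Their summed level was 349, 376 and 344 CPM in DKO, 344, 358 and 352 CPM in the Gm1142KO-labelled libraries, and 339, 351 and 334 CPM in WT. The abundant genes dominate this sum, so a change in a scarce gene such as Cdkn1a hardly shows in it. The mean log2 CPM of the 10, which weights each gene equally, was 4.37, 4.26 and 4.22 in DKO. It was 4.21, 4.02 and 3.97 in the Gm1142KO-labelled libraries and 4.33, 4.19 and 4.27 in WT. Group differences in this mean were not tested. The spread between replicates differed by gene. Mdm2 varied least, with a coefficient of variation of 4.23% in DKO, 4.13% in the Gm1142KO-labelled libraries and 1.32% in WT, and Pmaip1 was the most variable in the last of these groups at 43.3%.

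**Figure D1:**
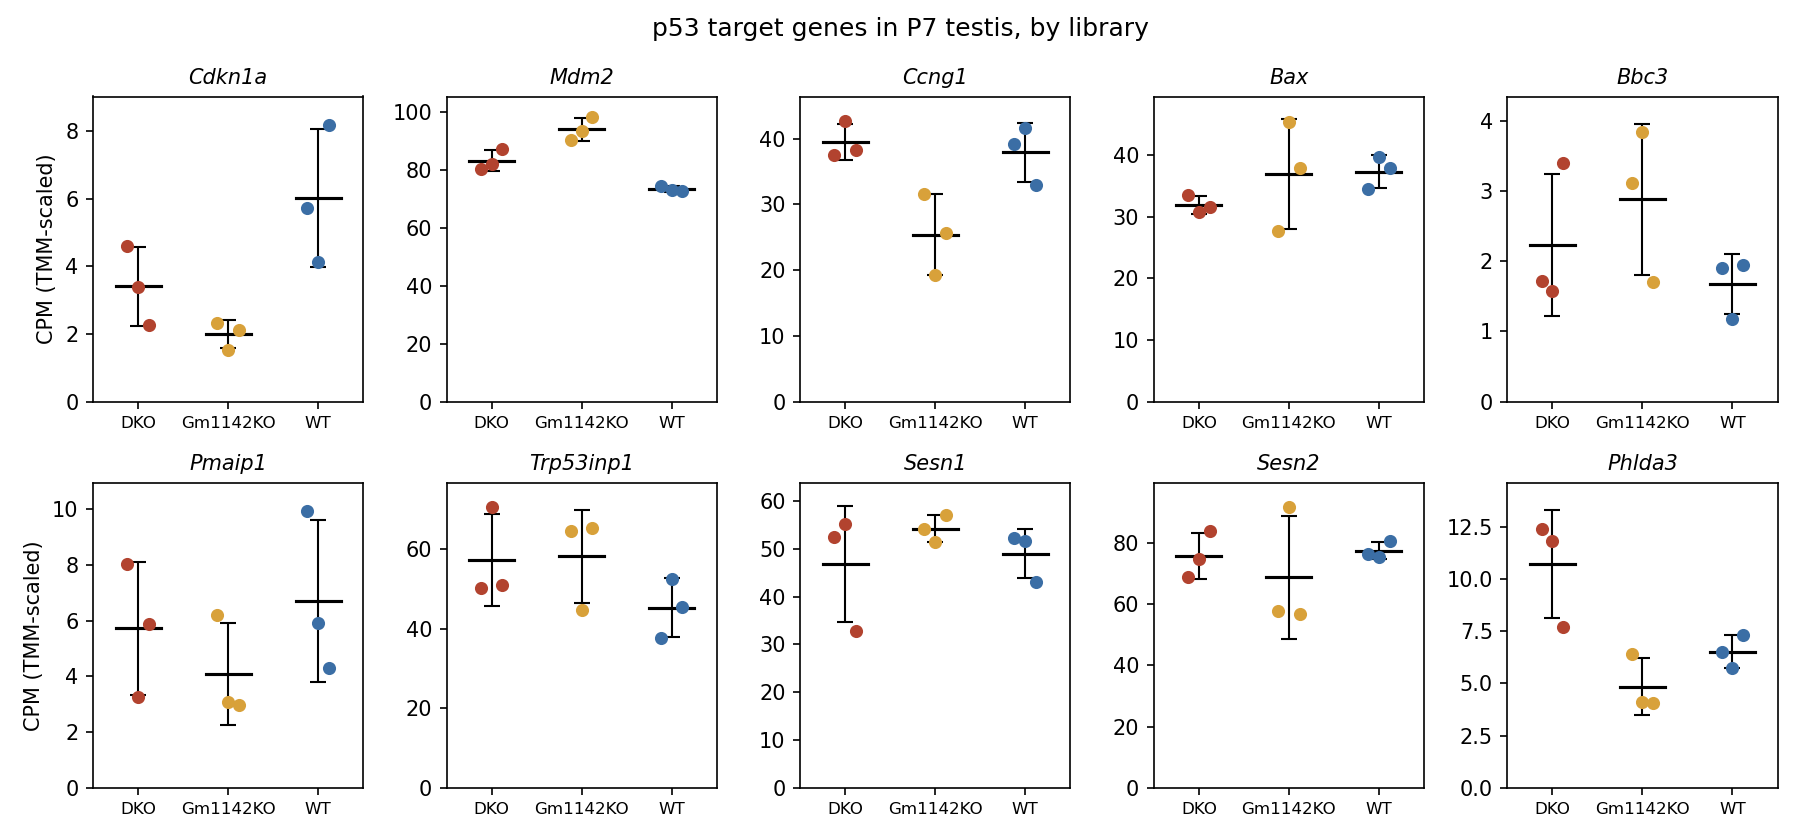
Level of each of the 10 p53 target genes in CPM on TMM-scaled library sizes, by library (points), with mean (line) and SD (bars) of 3 libraries per group. Cdkn1a and Ccng1 lie lower and Mdm2 lies higher in all 3 libraries labelled Gm1142KO than in the WT libraries, while Phlda3 lies higher in DKO than in both other groups.

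Does the p53 programme differ from WT when Gm1142 is targeted alone? In the Gm1142KO-labelled libraries the arrest gene Cdkn1a fell by 1.56 and the cyclin G gene Ccng1 by 0.57 on the log2 scale, and the feedback gene Mdm2 rose by 0.35. Of the 10 targets, 3 passed (edgeR quasi-likelihood test, Benjamini-Hochberg adjusted p under 0.05), 1 higher and 2 lower, against 18.5% of all tested genes, 10.2% higher and 8.38% lower. The same 3 were those whose libraries did not overlap with WT, as was so for 35.9% of all tested genes, 18.7% above and 17.2% below. With so many genes called, a count of 3 in 10 is not read as a feature of these targets. Their median log2 fold change was -0.10, against -0.01 over all tested genes. The changed targets thus moved in opposite directions and the list as a whole stayed near the centre of the transcriptome. In bulk tissue, fewer cells of a type and less RNA per cell cannot be told apart.

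Cdkn1a encodes p21, an inhibitor of cyclin-dependent kinases that holds cells in G1. It had 12, 6 and 10 counts in the Gm1142KO-labelled libraries and 30, 21 and 38 in WT, which is 2.33, 1.53 and 2.13 CPM against 5.74, 4.14 and 8.18 CPM. Every Gm1142KO-labelled library was below every WT library. The level was 66.2% lower on the fitted scale, with a log2 fold change of -1.56 (SE 0.47, 95% interval -2.54 to -0.59, edgeR QL adjusted p = 0.0232). The call rested on few counts and was lost without Gm1142KO 2 (adjusted p = 0.0726), Gm1142KO 3 (0.06), WT 1 (0.0582) or WT 3 (0.116) in the same edgeR fit.

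Ccng1 encodes cyclin G1, which recruits a phosphatase to MDM2. It was at 31.5, 19.2 and 25.6 CPM in the Gm1142KO-labelled libraries, against 39.2, 41.6 and 32.9 CPM in WT. The groups did not overlap, but the highest Gm1142KO-labelled library was close to the lowest WT library. The log2 fold change was -0.57 (SE 0.19, 95% interval -0.96 to -0.18, edgeR QL adjusted p = 0.0374). The call was lost without Gm1142KO 2 (adjusted p = 0.151), Gm1142KO 3 (0.0927), WT 1 (0.115) or WT 2 (0.138), and with the replicate number as a block (0.0515).

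Mdm2 encodes the ubiquitin ligase that marks p53 for degradation. It was at 90.3, 93.3 and 98.0 CPM in the Gm1142KO-labelled libraries, against 74.5, 73.1 and 72.6 CPM in WT. The WT libraries lay within 1.03-fold of each other and the Gm1142KO-labelled libraries were all above them. The log2 fold change was small, 0.35 (SE 0.12, 95% interval 0.10 to 0.61), and its edgeR QL adjusted p of 0.0492 was just under the threshold. It was lost whichever of the 6 libraries was left out: the adjusted p was 0.0658 without Gm1142KO 1, 0.0815 without Gm1142KO 2, 0.178 without Gm1142KO 3, 0.125 without WT 1, 0.131 without WT 2 and 0.133 without WT 3. It was also lost with limma-voom (0.0520), RLE size factors (0.0526), removal of mitochondrial genes (0.0524), no filter (0.166) and the replicate block (0.0756).

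The apoptosis genes did not pass in this comparison. Bax, whose product permeabilises the mitochondrial outer membrane, was at 27.6, 45.3 and 37.9 CPM in the Gm1142KO-labelled libraries, against 34.5, 39.6 and 37.9 CPM in WT (log2 fold change -0.02, 95% interval -0.40 to 0.35). The BH3-only gene Bbc3, which encodes PUMA, was at 3.11, 3.84 and 1.70 CPM against 1.91, 1.18 and 1.94 CPM (0.77, interval -0.44 to 1.97). For Pmaip1, which encodes the BH3-only protein NOXA, the levels were 6.21, 3.07 and 2.98 CPM in the Gm1142KO-labelled libraries and 9.95, 5.91 and 4.31 CPM in WT (-0.70, interval -1.63 to 0.22). The groups overlapped for all 3 genes. For Bbc3 and Pmaip1 the intervals still allow changes of more than 2-fold in one direction.

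The remaining targets did not pass either. Trp53inp1, whose product promotes autophagy and p53 phosphorylation, was at 64.5, 44.7 and 65.4 CPM in the Gm1142KO-labelled libraries, against 37.7, 52.6 and 45.4 CPM in WT (log2 fold change 0.37, SE 0.18, edgeR QL adjusted p = 0.177). Sesn1, which encodes a sestrin that restrains mTORC1 signalling, was at 54.2, 51.4 and 57.1 CPM against 52.3, 51.6 and 43.1 CPM (0.15, SE 0.17). Its relative Sesn2, which senses leucine, was at 57.7, 91.8 and 56.7 CPM in the Gm1142KO-labelled libraries and 76.4, 75.3 and 80.5 CPM in WT (-0.18, SE 0.17). Gm1142KO 2 was the outlying library for Trp53inp1 and Sesn2. Without it Sesn2 passed at -0.44 (edgeR QL adjusted p = 0.0480), and without Gm1142KO 2 and DKO 2 together Trp53inp1 passed at 0.52 (0.0198). Phlda3, whose product competes with AKT for membrane lipids, was at 6.41, 4.09 and 4.05 CPM against 6.51, 5.72 and 7.32 CPM (-0.41, SE 0.34).

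How does the double knockout compare with WT? None of the 10 targets passed in DKO against WT (edgeR QL adjusted p under 0.05), where 0.0927% of all tested genes did, 0.0464% higher and 0.0464% lower. At an unadjusted p under 0.05 there was 1, Phlda3, and DESeq2 and limma-voom called 0. The median log2 fold change of the 10 was 0.01, against 0.02 over all tested genes. Phlda3 was at 12.4, 11.8 and 7.70 CPM in DKO, against 6.51, 5.72 and 7.32 CPM in WT. All 3 DKO libraries were above WT, but the log2 fold change of 0.72 (SE 0.32, 95% interval 0.06 to 1.38) had an edgeR QL adjusted p of 0.514.

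Mdm2 and Bax also had DKO libraries that did not overlap with WT. Mdm2 was at 80.2, 82.0 and 87.0 CPM in DKO, all above the WT values of 72.6 to 74.5 CPM (log2 fold change 0.18, SE 0.12). Bax was at 33.5, 30.8 and 31.5 CPM in DKO, all below the WT values of 34.5 to 39.6 CPM (-0.23, SE 0.18). With Phlda3 that makes 3 of 10 targets without overlap, 2 above and 1 below WT, against 15.9% of all tested genes, 8.28% above and 7.57% below.

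The other targets overlapped between DKO and WT. Cdkn1a was at 4.59, 3.38 and 2.26 CPM in DKO, with 24, 30 and 10 counts, against 5.74, 4.14 and 8.18 CPM in WT. Its log2 fold change of -0.80 had a 95% interval of -1.70 to 0.10, so a fall as large as in the Gm1142KO-labelled libraries was not shown to be absent. Ccng1 was at 37.5, 42.6 and 38.3 CPM in DKO (0.06, interval -0.32 to 0.44). The changes of the remaining 5 lay between -0.26 for Pmaip1 and 0.37 for Bbc3.

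**Figure D2:**
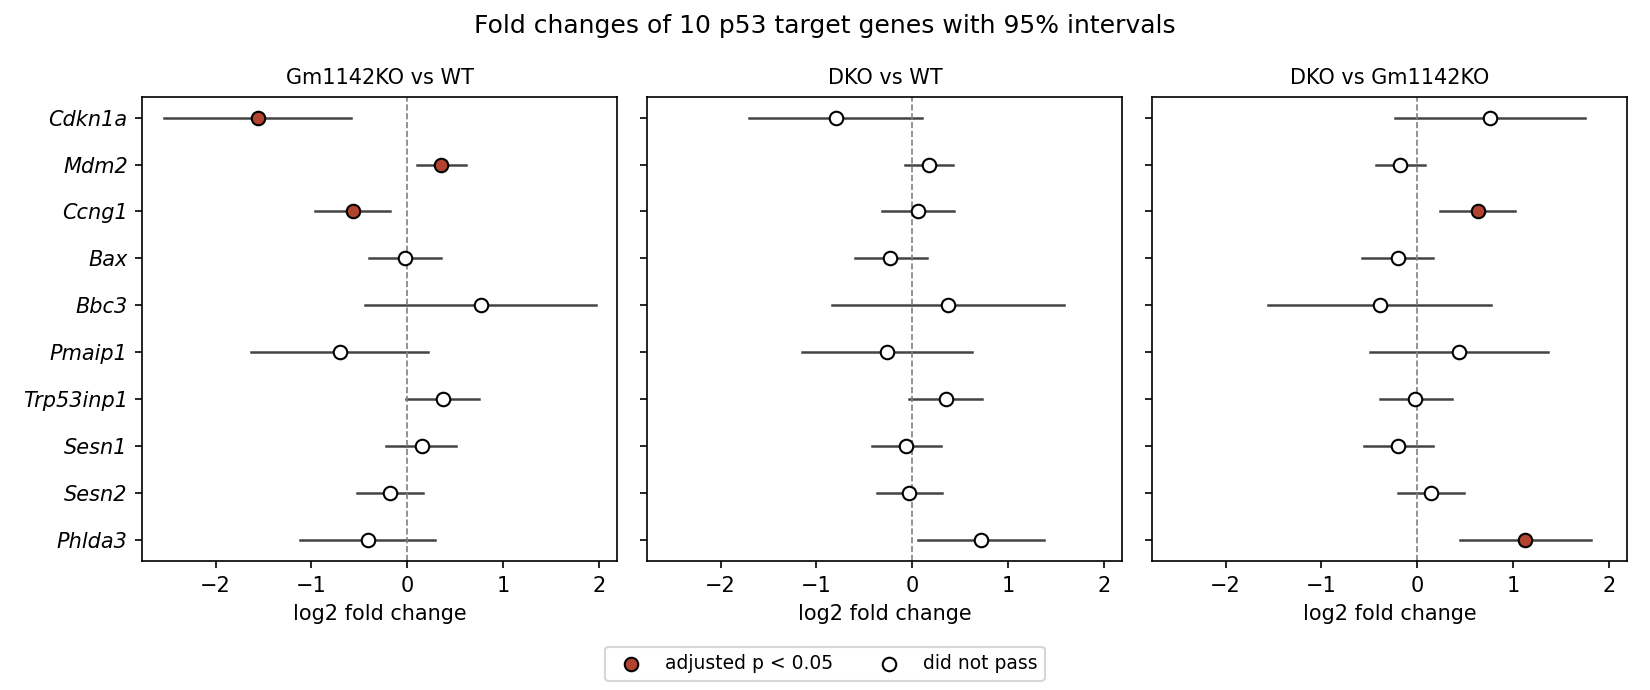
Log2 fold change (x axis) of each p53 target gene in the 3 comparisons (panels), with 95% intervals; filled points passed at an edgeR QL adjusted p under 0.05 and open points did not. Cdkn1a, Mdm2 and Ccng1 passed in Gm1142KO against WT, none in DKO against WT, and Ccng1 and Phlda3 in DKO against Gm1142KO.

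Do the knockout groups differ from each other? Direct comparison of DKO with the Gm1142KO-labelled libraries is also the test of whether their differences from the shared WT libraries differ. Of the 10 targets, 2 were higher in DKO and 0 lower (edgeR QL adjusted p under 0.05), against 19.1% of all tested genes, 9.07% higher and 10.1% lower. This comparison shares the Gm1142KO-labelled libraries with the comparison to WT above. The share of targets called was close to that of all genes, and their median log2 fold change of 0.06 was near the 0.03 of all tested genes. Libraries did not overlap for 3 of 10, Ccng1 and Phlda3 above and Mdm2 below, against 33.4% of all tested genes, 16.3% above and 17.1% below.

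Ccng1 was higher in DKO, at 37.5, 42.6 and 38.3 CPM, than in the Gm1142KO-labelled libraries, at 31.5, 19.2 and 25.6 CPM. The log2 fold change was 0.63 (SE 0.19, edgeR QL adjusted p = 0.0209), and no libraries overlapped. Phlda3 was higher at 12.4, 11.8 and 7.70 CPM in DKO, against 6.41, 4.09 and 4.05 CPM in the Gm1142KO-labelled libraries, a log2 fold change of 1.13 (SE 0.33, edgeR QL adjusted p = 0.0188). Both calls depended on single libraries. Ccng1 lost it without Gm1142KO 2 (adjusted p = 0.105), Gm1142KO 3 (0.0636) or DKO 2 (0.0822). Phlda3 lost it without Gm1142KO 2 (0.0629), Gm1142KO 3 (0.0781), DKO 1 (0.0699) or DKO 2 (0.0766). Cdkn1a differed by 0.76 (95% interval -0.23 to 1.75, edgeR QL adjusted p = 0.289) and Mdm2 by -0.18 (interval -0.43 to 0.08), so the changes of these genes against WT were not shown to differ between the knockout groups.

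Mdm4, whose product binds p53 and blocks its activity, was at 253, 305 and 254 CPM in DKO, 143, 139 and 153 CPM in the Gm1142KO-labelled libraries and 276, 247 and 263 CPM in WT. All Gm1142KO-labelled libraries were well below the other 6. The log2 fold change against WT was -0.85 (SE 0.12, edgeR QL adjusted p = 3.92e-05), and DKO exceeded the Gm1142KO-labelled libraries by 0.90 (SE 0.12, adjusted p = 2.6e-05). Both calls held in each of the 15 alternative fits.

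Trp53 itself was at 100, 97.6 and 117 CPM in DKO, 82.7, 89.0 and 82.5 CPM in the Gm1142KO-labelled libraries and 111, 120 and 105 CPM in WT. It fell by 0.40 on the log2 scale in the Gm1142KO-labelled libraries against WT (SE 0.13, edgeR QL adjusted p = 0.0308). This call was lost without Gm1142KO 1 (0.0734), Gm1142KO 3 (0.0987), WT 1 (0.0819) or WT 2 (0.129), without a filter on low counts (0.0523) and with the replicate block (0.05). p53 activity is set largely by the stability of the protein, which these data do not measure.

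Mdm2 and Mdm4 moved in opposite directions in the Gm1142KO-labelled libraries. The ratio of Mdm2 to Mdm4 in CPM was 0.317, 0.269 and 0.343 in DKO, 0.630, 0.671 and 0.639 in the Gm1142KO-labelled libraries and 0.269, 0.296 and 0.276 in WT. The ratio was chosen after its values were seen. Its log2 difference was 1.21 between the Gm1142KO-labelled libraries and WT and 0.14 between DKO and WT (two-sided exact permutation p = 0.1 and 0.4, where 0.1 is the smallest that 3 against 3 libraries can give).

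**Figure D3:**
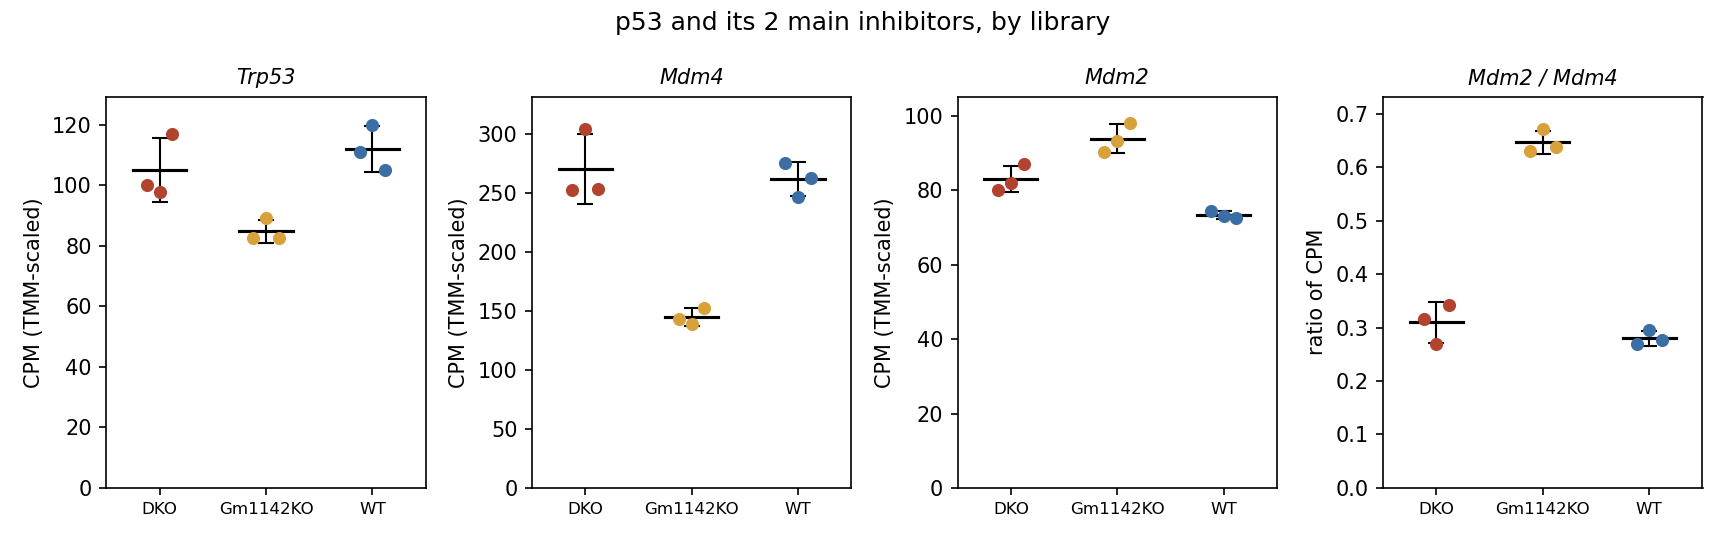
Levels of Trp53, Mdm4 and Mdm2 (CPM on TMM-scaled library sizes) and the ratio of Mdm2 to Mdm4, by library (points), with mean (line) and SD (bars) of 3 libraries per group. The Gm1142KO-labelled libraries have the lowest Mdm4, at 139 to 153 CPM, and the highest ratio, at 0.630 to 0.671.

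Among 19 tested regulators of p53, 2 rose and 2 fell in the Gm1142KO-labelled libraries against WT and 15 did not pass. As 18.5% of all tested genes were called, this count is near the background and is not read as a result about the regulators. Besides Mdm4 and Trp53 these were Atr, a kinase that senses replication stress (log2 fold change 0.47), and Rchy1, a further ubiquitin ligase for p53 (0.50). Their calls were lost without Gm1142KO 3, WT 1 or WT 2, with edgeR QL adjusted p up to 0.0696 for Atr and 0.128 for Rchy1, and the exons of both overlap other genes. Between DKO and WT 0 of the 19 passed with edgeR, DESeq2 or limma-voom, with 2 at an unadjusted p under 0.05. Against the Gm1142KO-labelled libraries, Mdm4 was higher in DKO and Rchy1 and Trp53bp1 lower, while 9.07% of all tested genes were higher and 10.1% lower. There the calls of Rchy1 and Trp53bp1 were lost in 5 and 10 of the 15 alternative fits.

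Of 34 other direct p53 targets that were tested, 4 rose and 6 fell in the Gm1142KO-labelled libraries against WT and 24 did not pass, with a median log2 fold change of -0.19. Over all tested genes 10.2% were higher and 8.38% lower, with a median of -0.01. Fdxr, a ferredoxin reductase that also serves steroid synthesis, was at 99.2, 99.7 and 115 CPM in the Gm1142KO-labelled libraries, against 263, 232 and 242 CPM in WT (log2 fold change -1.23, SE 0.12, edgeR QL adjusted p = 4.35e-07). Ddit4, an inhibitor of mTORC1 that many stresses induce, was at 108, 141 and 120 CPM against 233, 262 and 206 CPM (-0.93, SE 0.13). Pidd1, a scaffold for caspase activation, was at 25.4, 38.9 and 32.6 CPM in the Gm1142KO-labelled libraries, against 13, 13.2 and 15.5 CPM in WT (1.21, SE 0.22), and the endoplasmic reticulum gene Ei24 rose by 0.57 (SE 0.13). These 4 calls held in all 15 alternative fits, and the exons of Ei24 overlap an antisense gene.

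Between DKO and WT, 0 of these 34 passed with edgeR and with limma-voom, 1 with DESeq2, and 3 (Plk2, Aen and Ddit4) had an unadjusted p under 0.05. Ddit4 was at 142, 153 and 167 CPM in DKO, all below WT (log2 fold change -0.60, SE 0.13, edgeR QL adjusted p = 0.0917). It passed with DESeq2 (adjusted p = 0.00611), without a filter on low counts (0.00479), with the compared groups fitted alone (0.0349) and without Gm1142KO 2 and DKO 2 together (0.0442). Aen passed without a filter alone (0.0492). Against the Gm1142KO-labelled libraries, 7 of the 34 were higher and 3 lower in DKO, while 9.07% of all tested genes were higher and 10.1% lower. Fdxr (1.01), the exonuclease gene Aen (0.99) and Gtse1 (1) were higher and Ei24 (-0.81) was lower, with calls that held in all 15 alternative fits.

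In the BCL2 family of 12 tested genes, which sets the threshold for mitochondrial cell death, 2 rose and 0 fell in the Gm1142KO-labelled libraries against WT, while 10 did not pass. That share is near the 18.5% called over all tested genes, so the values below belong to single genes, not to the family. Bcl2l11, the BH3-only gene that encodes BIM, was at 60.0, 80.3 and 66.3 CPM in the Gm1142KO-labelled libraries, against 24.5, 14.6 and 20.2 CPM in WT (log2 fold change 1.80, SE 0.19, edgeR QL adjusted p = 2.27e-06). The BAX relative Bok was at 94.0, 124 and 105 CPM against 50.2, 61.5 and 47.4 CPM (1.02, SE 0.15). Neither is one of the 10 targets, and the targets of the same family, Bax, Bbc3 and Pmaip1, did not pass. In DKO 0 of 12 passed against WT with edgeR, DESeq2 or limma-voom, and 0 had an unadjusted p under 0.05. Against the Gm1142KO-labelled libraries, 1 of the 12 was higher and 2 lower in DKO, while 9.07% of all tested genes were higher and 10.1% lower. Bcl2l11 was lower in DKO by 1.88 on the log2 scale, and Bok by 0.95. Bcl2l2 was higher in DKO, by 0.55 to 0.76 over the 15 alternative fits, though its exons overlap another gene. These 3 calls held in all 15 alternative fits.

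p21 represses cell-cycle genes through the DREAM complex, and 12 such genes were tested. In the Gm1142KO-labelled libraries against WT, 4 rose, 2 fell and 6 did not pass, with a median log2 fold change of 0.19, against 10.2% of all tested genes higher, 8.38% lower and a median of -0.01. Cdk1, the kinase that drives mitosis, was at 140, 179 and 171 CPM in the Gm1142KO-labelled libraries, against 68.3, 60.9 and 64.0 CPM in WT (1.34, SE 0.14, edgeR QL adjusted p = 1.53e-06). The phosphatase gene Cdc25c rose by 0.77 (SE 0.15), Mybl2 by 0.72 (SE 0.19) and cyclin gene Ccnb1 by 0.57 (SE 0.15), while the mitotic kinase gene Plk1 (-0.80) and the kinesin gene Kif23 (-0.40) fell. The call of Ccnb1 was lost without WT 3 (edgeR QL adjusted p = 0.0682), and those of Mybl2, Plk1 and Kif23 without any of several libraries (up to 0.0655, 0.138 and 0.0948). Members of this list therefore did not move one way. When DKO was compared with WT, 0 of 12 passed with edgeR, DESeq2 or limma-voom, with 1 (Cdc20) at an unadjusted p under 0.05. Against the Gm1142KO-labelled libraries, 2 of the 12 were higher in DKO (Plk1 and Kif23) and 3 lower (Cdk1, Cdc25c and Ccnb1). Over all tested genes 9.07% were higher and 10.1% lower. The calls of Cdk1 and Cdc25c held in all 15 alternative fits, and those of Plk1, Kif23 and Ccnb1 were lost in 1, 3 and 6.

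**Figure D4:**
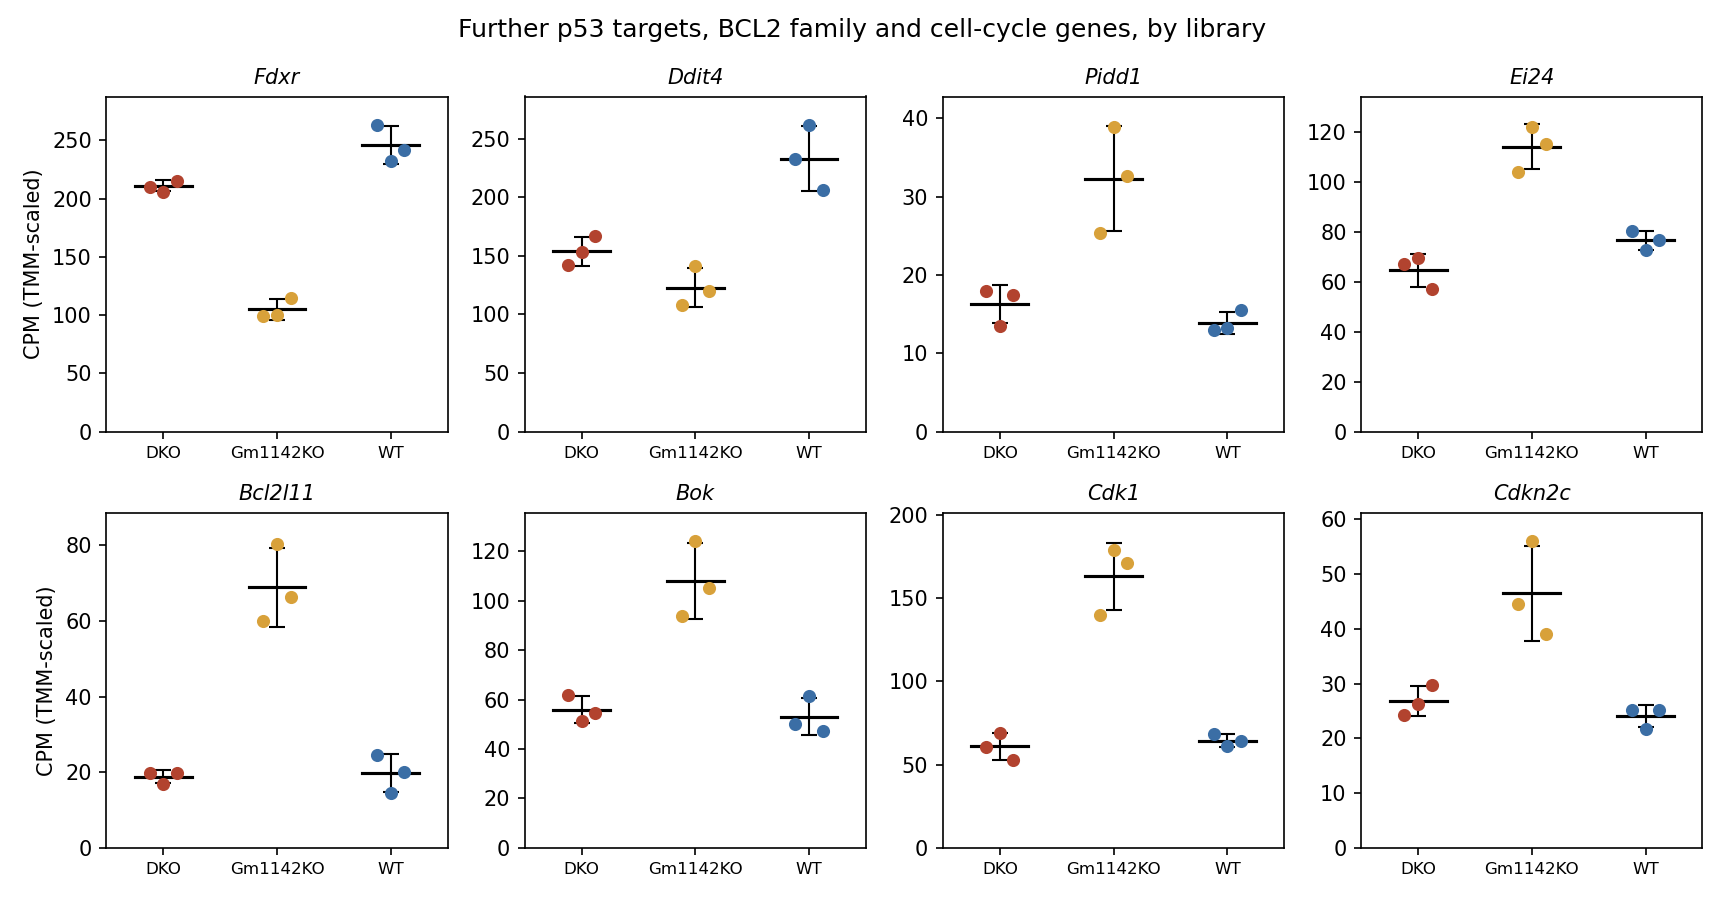
Levels of 8 further genes in CPM on TMM-scaled library sizes, by library (points), with mean (line) and SD (bars) of 3 libraries per group: the p53 targets Fdxr, Ddit4, Pidd1 and Ei24, the BCL2-family genes Bcl2l11 and Bok, and the cell-cycle genes Cdk1 and Cdkn2c. The Gm1142KO-labelled libraries do not overlap with WT in any panel, with Bcl2l11 at 60.0 to 80.3 CPM there and 14.6 to 24.5 CPM in WT.

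Summed markers of cell types in and around the tissue overlapped between groups for some lists and not for others. In the Gm1142KO-labelled libraries against WT, 18.5% of all tested genes were called, 10.2% higher and 8.38% lower. With so many genes called there, the number of markers called per list is not read as a result about a cell type. In DKO against WT, 0.0464% of all tested genes were higher and 0.0464% lower. The 6 Leydig-cell markers summed to 250 to 445 CPM in DKO, 174 to 267 CPM in the Gm1142KO-labelled libraries and 279 to 502 CPM in WT, and 2 of 5 tested (Cyp17a1 and Hsd3b1) fell in the Gm1142KO-labelled libraries against WT. The 8 Sertoli-cell markers summed to 601 to 680 CPM in DKO, 665 to 724 CPM in the Gm1142KO-labelled libraries and 614 to 670 CPM in WT. Of 7 tested in the Gm1142KO-labelled libraries against WT, Sox9 and Cst9 fell and Wt1 rose. The 8 germ-cell markers summed to 556 to 702 CPM in DKO, 284 to 352 CPM in the Gm1142KO-labelled libraries and 345 to 430 CPM in WT. Of 7 tested, Dazl fell and Sycp1 rose in the Gm1142KO-labelled libraries against WT, the Sycp1 call being lost without WT 1 (edgeR QL adjusted p = 0.0971). In DKO against WT both rose, though Dazl lost the call without DKO 2, WT 1 or WT 3 (edgeR QL adjusted p up to 0.167) and Sycp1 without WT 1 (0.0717). There 5 of the 7 tested, Dazl and Sycp1 among them, had an unadjusted p under 0.05. The share of all tested genes under that unadjusted threshold was not computed, so this count is not read as a result about germ cells. The other 5 lists hold 5 markers each, all tested. Epididymis and duct markers summed to 23.6 to 36.9 CPM in DKO and 40.7 to 45.8 CPM in the Gm1142KO-labelled libraries, both below the 48.5 to 57.1 CPM of WT, with 0 called against WT in either group by edgeR. In the Gm1142KO-labelled libraries DESeq2 and limma-voom also called 0, with 1 (Emx2) at an unadjusted p under 0.05. Cdh16 of this list had a log2 fold change of -1.26 in DKO against WT (edgeR QL adjusted p = 0.0816) and passed with DESeq2 (0.00789), without a filter (0.000693), with the compared groups alone (0.0432) and without DKO 1 (0.0154). Red-cell markers summed to 62.4 to 82.7 CPM in DKO, 95.2 to 136 CPM in the Gm1142KO-labelled libraries and 68.7 to 82.9 CPM in WT, and Hba-a1 rose in the Gm1142KO-labelled libraries.

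Myoid, macrophage and endothelial markers overlapped between all 3 groups. Their sums were 374 to 538, 31.9 to 40.0 and 86.9 to 116 CPM in DKO, 358 to 518, 30.0 to 35.5 and 56.8 to 136 CPM in the Gm1142KO-labelled libraries, and 413 to 517, 33.8 to 38.9 and 91.9 to 105 CPM in WT. In the Gm1142KO-labelled libraries against WT, Des fell among the myoid and Cx3cr1 among the macrophage markers, and 0 endothelial markers passed with edgeR, DESeq2 or limma-voom or at an unadjusted p under 0.05. The calls of Hba-a1, Des and Cx3cr1 were each lost under several alternatives, single libraries left out among them (adjusted p up to 0.128, 0.164 and 0.209). In DKO against WT 0 markers of these 5 lists passed with edgeR. At an unadjusted p under 0.05 there were 2 of duct (Cdh16 and Emx2) and 2 of endothelium (Kdr and Vwf), and limma-voom called 0 and DESeq2 1. DKO exceeded the Gm1142KO-labelled libraries in Kdr by 0.88 on the log2 scale and was below them in Vwf (-1.24) and Cdh16 (-0.92). Those 3 calls were lost in the same way (adjusted p up to 0.105, 0.147 and 0.146). In DKO against the Gm1142KO-labelled libraries, 5 of 7 tested germ-cell markers were higher and 0 lower, against 9.07% and 10.1% of all tested genes. Dazl held in all 15 alternative fits (log2 fold change 1.33 to 1.58), as did Sox9 and Cst9 (higher in DKO) and Wt1 (lower). Ddx4, Kit, Zbtb16, Sycp1, Cyp17a1 and Hsd3b1 were higher and Hba-a1 and Hba-a2 lower, with calls lost in 1 to 7 alternatives. None of the lists had a defining marker at 0 in every library. The part of cell composition and of the mitochondrial share in the changes of the p53 targets was not tested.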

How the data were processed

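Polyadenylated RNA from 9 mouse testes samples at postnatal day 7 was sequenced, per the labels' protocols. The authors deposited unscaled counts of reads per gene, whole numbers in 1 column per library. Per the submitters' processing notes, the tools were cutadapt, Bowtie2, STAR and featureCounts and the build was mm39. Annotation release, strand setting and multi-mapping were not given in the sources used, and each affects overlapping genes.

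Counts were fitted with edgeR 4.0.16 (TMM, default filter by group with minimum count 10 and total 15) in R 4.3.3, all 9 libraries in 1 model with 6 residual degrees of freedom. Each comparison used the quasi-likelihood F-test with Benjamini-Hochberg adjustment over 17251 genes, called under 0.05 without a fold minimum. Counts at an unadjusted p under 0.05 have no share of all tested genes beside them and are not read as results about a list. Exonic lengths and overlaps came from a GRCm38 annotation. Floors (3 counts) and 95% intervals cover counting error and replicate spread only, and without molecular identifiers the reads are not independent molecules. The test was also run on simulated data that changed few genes and none by a small fold. That run does not cover small changes such as those of Mdm2 and Ccng1, or data with many changed genes.

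The members and gene lists were chosen with earlier results of these data known. The rule named the 10 targets, Trp53, Mdm4, the targeted genes and, per list and comparison, up to 4 called genes with the smallest p. It named Plk1 and Kif23 for DKO against Gm1142KO only, and their values against WT were added after they were seen. Plk2, Cdc20, Emx2, Asns and the ratio of Mdm2 to Mdm4 were also named after their values were seen. Of 181 listed genes, 179 matched 1 row. Alternatives were RLE size factors, no filter, a strict filter (1 CPM in 3 libraries and 100 counts), DESeq2 1.42.0, limma-voom 3.58.1, the replicate number as a block, a fit of only the groups compared, removal of mitochondrial genes with nuclear copies, and leaving out libraries.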

Additional observations from a re-analysis of the deposited data

How the results depend on the processing

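None of the called genes named here turned its direction under an alternative. The 5 calls among the 10 targets were refitted 75 times under the alternatives, of which 44 kept and 31 lost the call. Of 374 refits of targets that had not passed, 371 stayed so and 3 passed. In Gm1142KO against WT the number of targets called was 1 with the replicate block in place of 3, and 0 to 2 when 1 library was left out; genes called were then 2037 to 3015 in place of 3196, and 3028 without Gm1142KO 2 and DKO 2 together. In DKO against WT no target was called under any alternative. Genes called there were 110 without a filter, 63 with DESeq2, 28 with the compared groups alone, 8 without mitochondrial genes and 9 to 32 with 1 library left out, in place of 16. In DKO against Gm1142KO, 2004 genes and 0 targets were called without Gm1142KO 2 and DKO 2 together, in place of 3301 and 2, and 2128 to 3219 genes and 0 to 2 targets with 1 library left out. Same-numbered libraries did not deviate together (correlations of -0.247 to 0.0925 over 9 pairs, against -0.159 to 0.157 over 18 pairs of different number). These correlations gave no sign of pairing by number but cannot exclude it, and the labels state no pairing. Of the named genes not called in DKO against WT, Ddit4 and Cdh16 each passed in 4 of 15 alternatives. Kit passed in 2, and Aen and Cdkn1b in 1 each. The causes were not tested. Low counts limit Cdkn1a, Bbc3, Pmaip1 and Phlda3, where 1 library's floor of 3 counts was 0.338 to 0.767 CPM.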

Other observations

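Of 14 tested genes of sestrin and mTORC1 control, 3 rose, 1 fell and 10 did not pass in the Gm1142KO-labelled libraries against WT, with a median log2 fold change of 0.11. In this comparison 18.5% of all tested genes were called, 10.2% higher and 8.38% lower, with a median of -0.01. Mios, a subunit of the GATOR2 complex to which sestrins bind, rose by 1.13 (SE 0.14, edgeR adjusted p = 1.09e-05) and Tsc2, an inhibitor of mTORC1, fell by 0.54 (SE 0.13, adjusted p = 0.00719), though its exons overlap Pkd1. Nprl3 rose by 0.53 and Sec13 by 0.52. The call of Nprl3 was lost without Gm1142KO 2 or WT 1 (edgeR adjusted p up to 0.0914) and that of Sec13 without Gm1142KO 2, WT 1 or WT 3 (up to 0.0971). In DKO against WT 0 of 14 passed with edgeR, DESeq2 or limma-voom, with 3 at an unadjusted p under 0.05. Against the Gm1142KO-labelled libraries, 2 of 14 were higher and 5 lower in DKO, while 9.07% of all tested genes were higher and 10.1% lower. The calls of Mios (lower) and Tsc2 (higher) held in all 15 alternative fits there. Those of Rptor, Tsc1, Nprl3 and Sec13 were lost in 4 to 9 of them.

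Of 16 tested G1 cyclins, kinases and inhibitors, Cdkn2c, an inhibitor of CDK4 and CDK6, rose by 0.95 (SE 0.18, edgeR adjusted p = 8.61e-04), and Cdk4 fell by 0.51 (SE 0.12, adjusted p = 0.00473) in the Gm1142KO-labelled libraries against WT. The other 14 did not pass. As 18.5% of all tested genes were called, 2 of 16 is not read as a result about this list. Exons of Cdk4 overlap Tspan31. In DKO against WT 0 of 16 passed with edgeR and limma-voom and 1 with DESeq2, with 2 at an unadjusted p under 0.05. Against the Gm1142KO-labelled libraries, Cdk6 was higher in DKO and Cdkn1b and Cdkn2c lower, while 9.07% of all tested genes were higher and 10.1% lower. The call of Cdkn2c held in all 15 alternative fits, and those of Cdk6 and Cdkn1b were lost in 3 and 7 of them. Of 8 tested ATF4 stress-response genes, 0 passed in any comparison with edgeR, DESeq2 or limma-voom. Against WT their median was 0.12 in DKO and 0.22 in the Gm1142KO-labelled libraries. At an unadjusted p under 0.05 there was 1, Asns, in the Gm1142KO-labelled libraries against WT, and 0 in the other comparisons.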
